A study of Mus musculus with 5 samples.

Results

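A set of 9 genes of primitive red cells were examined in RNA from mouse forelimbs that had lost Prmt5 in the limb mesenchyme. They are the embryonic globin genes Hbb-y, Hbb-bh1 and Hba-x, the haem synthesis gene Alas2, the transcription factor genes Gata1 and Klf1, the erythropoietin receptor gene Epor, and the membrane genes Ermap and Add2. The members were a list of 9 gene symbols matched to the gene name column, and each matched 1 row of the 23725 rows that name a gene. The forelimbs came from embryos at E11.5 with 47 to 48 somites, on a mixed C57BL/6 and Swiss Webster strain background. The Prmt5cKO group (2 samples, described as biological replicates) had the genotype Prx1Cre+/-;Prmt5c/c, in which a recombinase driven by a Prx1 enhancer acts in limb bud mesenchyme, and the control group (3 samples) is labelled only as control, its alleles not being given. Prmt5 encodes an arginine methyltransferase, and the comparison asks what differs between limbs with and without it.

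Primitive red cells arise in the blood islands of the yolk sac and circulate as nucleated cells, so they reach the limb bud through its vessels. In the mouse they make embryonic haemoglobin from the alpha-type zeta chain (Hba-x) and the beta-type chains epsilon-y (Hbb-y) and beta-h1 (Hbb-bh1), together with adult-type alpha chains. As these cells mature, the balance moves towards epsilon-y within the beta-type chains and towards adult alpha within the alpha-type chains. Definitive red cells of the foetal liver, which enter the circulation later, carry adult globins.

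The values are FPKM (fragments scaled to transcript length and library total), with 1 value per genotype computed by the authors, so no value below has an SD. The depth of the samples is unknown, and these FPKM support no count-based interval. Fold changes are the authors' own log2 ratios, positive where Prmt5cKO was higher, and their q-value is an adjusted p-value; both are used as deposited. A gene is said to have fallen or risen where its mean over the genotypes was at least 1 FPKM and the authors' q was under 0.05. Prmt5 itself stood at 12.5 FPKM in Prmt5cKO and 40.9 in control. The genotypes also differed in sex-linked RNA. Xist, which coats and silences an X chromosome in females, was measured at 0.392 FPKM in Prmt5cKO and 87.3 in control, and the Y-linked Ddx3y at 21.8 FPKM in Prmt5cKO and 0.0840 in control; Kdm5d, Uty and Eif2s3y, also Y-linked, rose too. Genotype and embryo sex therefore cannot be told apart for any difference below, and Alas2 and Gata1 lie on the X chromosome. In whole limbs, fewer red cells and less RNA per red cell cannot be told apart either.

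Stretches upstream of the annotated start are shown for 5 of the genes, because GATA-1 and KLF1 are the factors known to bind GATA and CACCC letters in erythroid promoters. They are from RefSeq on GRCm38.p6, the patch release of the mm10 build, written 5′ to 3′ on the strand of the gene, and capitals mark matches, on either strand, of the GATA-type motif (AGATAA or else TGATAA) and of CACCC. Hbb-y (chr7:103853268-103853457, minus strand), Alas2 (chrX:150547167-150547356, plus strand), Klf1 (chr8:84901732-84901921, plus strand) and Add2 (chr6:86028431-86028620, plus strand) are given from 250 to 61 bases before the start. Hba-x (chr11:32276487-32276516, plus strand) is given from 113 to 84 bases before its RefSeq start. Starts here are those of RefSeq, and GENCODE M21, used for the gene positions below, starts Hba-x further upstream, so that this stretch lies inside the gene as GENCODE places it.
Hbb-y: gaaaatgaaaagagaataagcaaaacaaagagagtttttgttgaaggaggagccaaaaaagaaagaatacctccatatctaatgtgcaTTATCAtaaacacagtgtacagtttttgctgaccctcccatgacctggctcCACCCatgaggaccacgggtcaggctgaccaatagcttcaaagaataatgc
Hba-x: ggctcTGATAAcaggctcCACCCtgcaagc
Alas2: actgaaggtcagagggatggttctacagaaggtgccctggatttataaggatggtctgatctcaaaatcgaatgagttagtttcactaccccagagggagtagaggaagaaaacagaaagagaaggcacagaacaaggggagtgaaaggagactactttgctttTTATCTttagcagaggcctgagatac
Klf1: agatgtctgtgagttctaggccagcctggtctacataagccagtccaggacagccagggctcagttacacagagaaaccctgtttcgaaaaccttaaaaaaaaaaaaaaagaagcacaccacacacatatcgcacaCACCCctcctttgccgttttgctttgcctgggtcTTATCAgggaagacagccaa
Add2: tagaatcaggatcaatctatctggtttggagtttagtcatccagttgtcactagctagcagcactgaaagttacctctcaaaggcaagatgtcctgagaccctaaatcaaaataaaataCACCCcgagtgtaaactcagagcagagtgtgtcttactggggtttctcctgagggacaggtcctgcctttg

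Promoters were matched for 8 of the 9 genes, and Hbb-bh1 was not among them. AGATAA or TGATAA, on either strand, occurred within 250 bases before the start in 6 of the 8 (Hbb-y, Hba-x, Alas2, Klf1, Epor and Ermap), and in 17% of 27025 RefSeq promoters of that length. CACCC occurred in 8 of 8, and in 51.3% of all promoters. The Hba-x matches lie 103 to 108 and 91 to 95 bases before the start, with a further CACCC at 194 to 198, and no GATA-type match overlapped a CACCC match in the members. In Alas2 the GATA-type match lies 81 to 86 bases before the start, and 3 CACCC matches on the opposite strand lie between 26 and 40 bases, outside the stretch shown. These CACCC matches lie inside Alas2 as GENCODE places it. Neither Gata1 nor Add2 had AGATAA or TGATAA in this window, which for Gata1 (chrX:7967911-7968160, minus strand) precedes a RefSeq start that lies inside the gene as GENCODE places it, and other starts were not searched. Forms ending in G, such as AGATAG, were not searched either, and the Add2 stretch holds AGATAG on the opposite strand. The letters are a description of the sequence and show no binding.

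In FPKM as deposited all 9 genes were lower in Prmt5cKO than in control forelimbs, but Hba-x, Klf1 and Epor were not after centring on the median of all genes, nor Klf1 and Epor after quantile normalization. At the authors' q under 0.05, 2 of the 9, Alas2 and Add2, fell, beside 17.6% of 11674 genes that fell by the same rule. Over the 9 genes, 7 of which did not pass, Prmt5cKO stood at 69.6% to 95.0% of control in FPKM as deposited. The whole table leaned the same way: 69.8% of the genes with a mean of at least 1 FPKM were lower in Prmt5cKO, whatever the q, and 4.39% rose at the authors' q under 0.05. The median log2 ratio over 11657 of these genes, those above 0 in both genotypes, was -0.13. Set against that median, Alas2, Add2, Hbb-y, Ermap, Gata1 and Hbb-bh1 lay below it and Hba-x, Klf1 and Epor above it. All 9 passed the minimum level, with Gata1 the lowest at a mean of 1.82 FPKM.

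**Figure D1:**
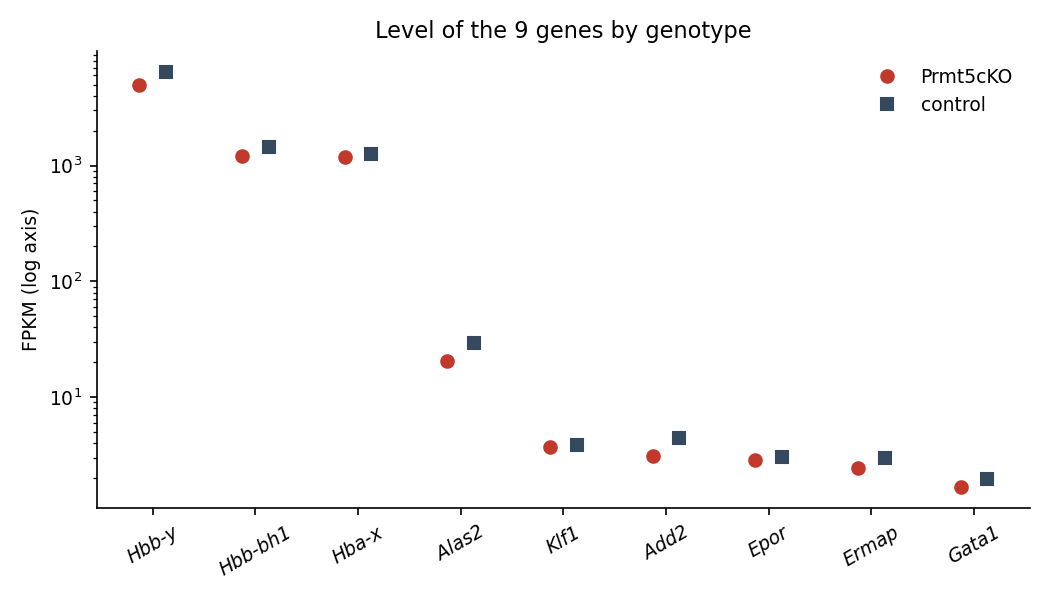
FPKM of the 9 genes on a log axis, 1 authors' value per genotype, Prmt5cKO as circles and control as squares. The 3 embryonic globins stand highest, between 1182 and 6478 FPKM over both genotypes, Alas2 at 20.7 FPKM in Prmt5cKO and 29.3 in control, and the other 5 genes under 5 FPKM.

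In Prmt5cKO the levels ran, from high to low, Hbb-y, Hbb-bh1, Hba-x, Alas2, Klf1, Add2, Epor, Ermap and Gata1, and in control the order was the same except that Add2 stood above Klf1. Without a spread over samples, neighbours as near as Hbb-bh1 and Hba-x, or Klf1, Add2, Epor and Ermap, cannot be ranked firmly.

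The embryonic globins were by far the most abundant of the 9. Hbb-y, the epsilon-y chain gene on chromosome 7 (103851749 to 103853216, minus strand, GENCODE M21), stood at 4911 FPKM in Prmt5cKO and 6478 in control, rank 4 in Prmt5cKO and rank 3 in control among the named rows. The authors' deposited table gave it a log2 fold change of -0.40 at q = 0.131, so it did not pass. Hbb-bh1, the beta-h1 chain gene in the same cluster (103841637 to 103843164, minus strand), stood at 1204 FPKM in Prmt5cKO and 1432 in control, and the authors' deposited table gave it a log2 fold change of -0.25 at q = 0.200. Hba-x, the zeta chain gene at the start of the alpha cluster on chromosome 11 (32276400 to 32278116, plus strand), was the embryonic globin closest to its control level. It stood at 1182 FPKM in Prmt5cKO and 1258 in control, and the authors' deposited table gave it a log2 fold change of -0.09 at q = 0.691.

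The adult-type globin rows fell, unlike the embryonic ones, none of which passed; the difference between the 2 kinds was not tested. They name several near-identical genes each, and how the authors split reads between the copies is unknown. The row of Hbb-b1, Hbb-bs and Hbb-bt, the adult beta chains, fell to 432 FPKM in Prmt5cKO, against 665 in control, and the authors' deposited table gave it a log2 fold change of -0.62 at q = 6.52e-13. Both rows of Hba-a1 and Hba-a2, the adult alpha chains, fell as well. The higher row stood at 1167 FPKM in Prmt5cKO and 1661 in control, and the authors' deposited table gave it a log2 fold change of -0.51 at q = 7.0e-04. The lower row stood at 853 FPKM in Prmt5cKO and 1109 in control, and the authors' deposited table gave it a log2 fold change of -0.38 at q = 0.0165. This fold is close to that of Hbb-y, whose q was 0.131 in the authors' deposited table, so a fold of about this size passed for 1 globin row and not for another. The minor globins Hbq1b, Hbq1a and Hbb-bh2 stood at 2.35, 0.491 and 0.429 FPKM in Prmt5cKO and at 3.39, 0.483 and 0.184 FPKM in control, and none of them passed.

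**Figure D2:**
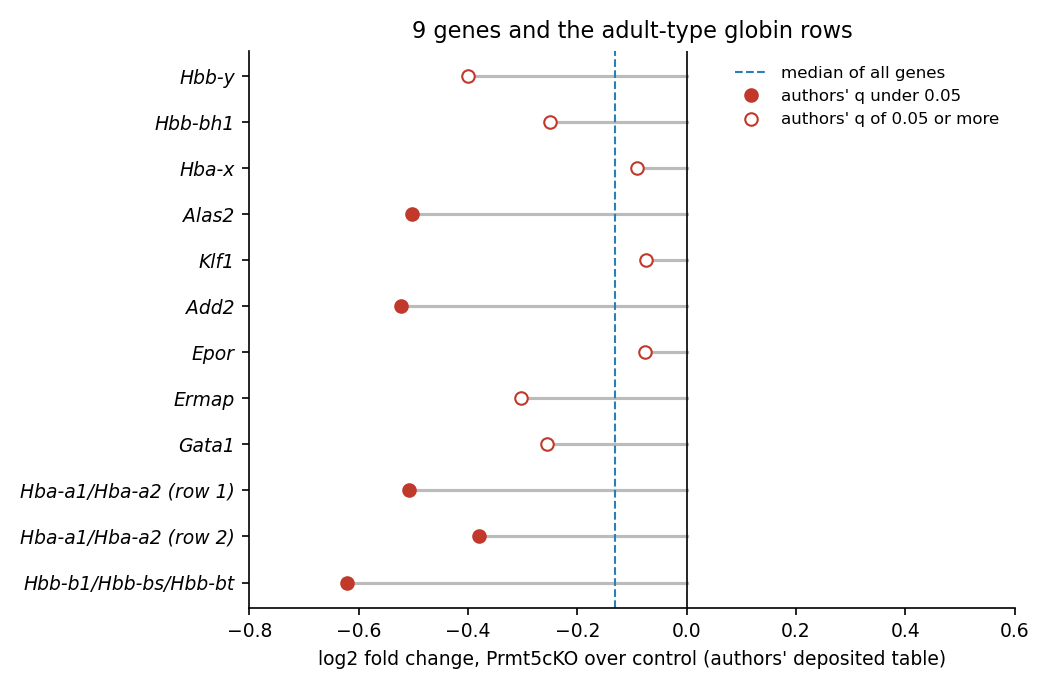
Log2 fold change of Prmt5cKO over control in the authors' deposited table for the 9 genes and the 3 adult-type globin rows, filled where the authors' q was under 0.05. Alas2, Add2 and the 3 adult-type rows are filled, and Hba-x, Klf1 and Epor lie to the right of the dashed median of all genes at -0.13.

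Most globin RNA was embryonic in both genotypes: Hba-x, Hbb-y and Hbb-bh1 held 74.8% of the alpha-type and beta-type FPKM in Prmt5cKO and 72.7% in control. Hbb-y and Hbb-bh1 together were 14.2 times the adult beta row in Prmt5cKO and 11.9 times in control. Of the summed alpha-type FPKM, Hba-x held 36.9% in Prmt5cKO and 31.2% in control. The alpha-type sum adds both rows of Hba-a1 and Hba-a2. If the same reads were counted in both rows, adult alpha would be overstated in every share, ratio and sum here that uses them. Of the summed beta-type FPKM, Hbb-y held 75.0% in Prmt5cKO and 75.5% in control, and the adult row held 6.60% in Prmt5cKO and 7.75% in control. Hbb-bh1 held the remaining 18.4% in Prmt5cKO and 16.7% in control. The ratio of Hbb-y to Hbb-bh1 was 4.08 in Prmt5cKO and 4.52 in control, and that of all alpha-type to all beta-type FPKM was 0.489 in Prmt5cKO and 0.470 in control. These shares have 1 value per genotype and no spread, so whether they differ beyond sampling was not tested. All globin rows together summed to 9752 FPKM in Prmt5cKO and 12607 in control, which was 1.65% of the FPKM of all named rows in Prmt5cKO and 2.01% in control.

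**Figure D3:**
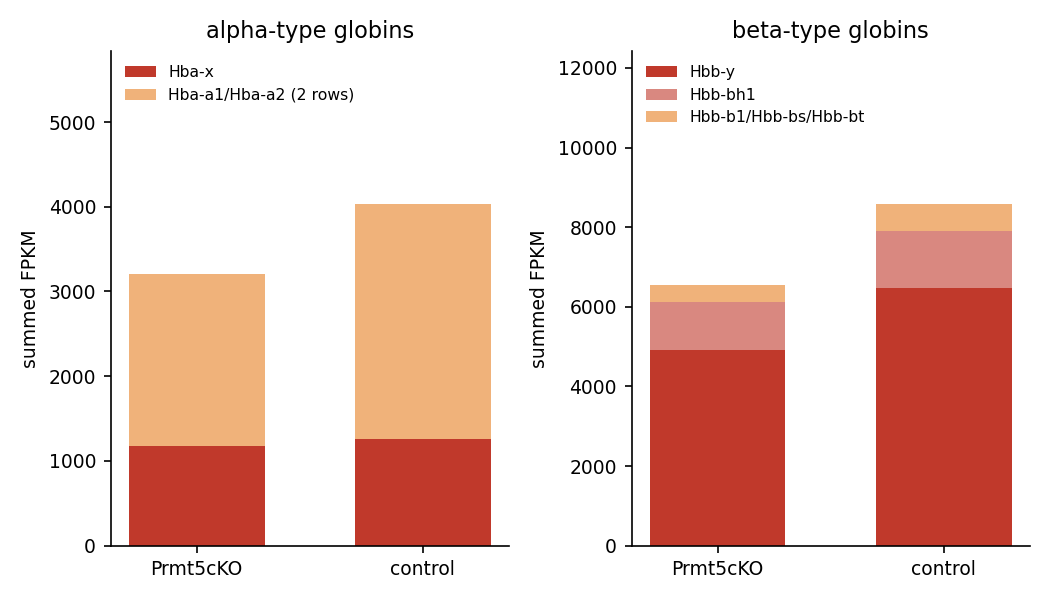
Summed FPKM of alpha-type globins (left) and beta-type globins (right) by genotype, 1 authors' value per genotype, divided by gene or row. Both totals are lower in Prmt5cKO, at 3202 FPKM against 4029 in control for alpha-type and 6547 FPKM against 8574 in control for beta-type, and Hbb-y makes up most of the beta-type total in both.

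Alas2 was the haem synthesis gene among the 9 and fell. It encodes the erythroid form of aminolevulinate synthase, the first and rate-limiting enzyme of haem synthesis in red cells, and lies on the X chromosome (150547375 to 150570638, plus strand). Its level fell to 20.7 FPKM in Prmt5cKO, against 29.3 in control, and the authors' deposited table gave it a log2 fold change of -0.50 at q = 4.75e-04. Alas1, the form used in other tissues and chosen after its values were seen, stood at 13.3 FPKM in Prmt5cKO and 14.1 in control and did not pass. Of 17 further genes of haem synthesis and transport 4 fell, beside 17.6% of all genes, and 1 rose, beside 4.39%. The other 12 did not pass. The enzymes that fell act after aminolevulinate synthase in the pathway: Uros, Urod and Ppox are listed at log2 fold changes of -0.55, -0.53 and -0.27 by the authors' deposited table. Urod stood at 49.3 FPKM in Prmt5cKO and 71.2 in control, and Uros at 8.08 FPKM in Prmt5cKO and 11.8 in control. Tmem14c, a mitochondrial membrane protein needed to move haem precursors, fell by 0.30 (log2) according to the authors' deposited table. Abcb6, a porphyrin transporter, was the gene that rose, to 17.4 FPKM in Prmt5cKO against 12.1 in control. Other cells make haem too, so these levels cannot be placed in red cells from whole limbs.

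Neither erythroid transcription factor gene among the 9 passed the threshold. Klf1, which activates the adult beta-globin gene and many red cell genes, stood at 3.68 FPKM in Prmt5cKO and 3.87 in control (chromosome 8, 84901928 to 84905291, plus strand), and the authors' deposited table gave it a log2 fold change of -0.07 at q = 0.864. Gata1, the master regulator of the erythroid lineage, stood at 1.66 FPKM in Prmt5cKO and 1.98 in control (X chromosome, 7959260 to 7978071, minus strand), and the authors' deposited table gave it a log2 fold change of -0.26 at q = 0.647. Of 14 further factors at a mean of 1 FPKM or more, 1 rose and 1 fell, beside 4.39% and 17.6% of all genes. Another 10 missed the threshold and 2 were listed without a test. Lmo2, a partner of Tal1 and Gata1 that endothelial cells also use, rose to 19.7 FPKM in Prmt5cKO against 15.0 in control. Bach1, a haem-sensing repressor of globin genes, fell to 20.1 FPKM in Prmt5cKO against 25.5 in control.

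Epor, whose product receives the erythropoietin signal that keeps red cell precursors alive, did not pass. It lies on chromosome 9 (21958897 to 21963506, minus strand) and stood at 2.87 FPKM in Prmt5cKO and 3.02 in control, and the authors' deposited table gave it a log2 fold change of -0.08 at q = 0.881. Of 15 genes of the pathway around it at the minimum level, 3 fell and none rose, beside 17.6% and 4.39% of all genes. Another 11 missed the threshold and 1 had no test. The kinase gene Jak2 fell to 8.86 FPKM in Prmt5cKO against 12.7 in control, and the transcription factor gene Stat5b to 5.19 FPKM in Prmt5cKO against 7.09 in control. The adaptor gene Gab1 fell to 7.73 FPKM in Prmt5cKO against 10.9 in control. Jak2, Stat5b and Gab1 serve many receptors, and in whole limbs their levels cannot be assigned to red cells.

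Of the 2 membrane genes, Add2 fell and Ermap did not pass. Add2 encodes beta-adducin, which caps actin filaments in the spectrin skeleton under the red cell membrane. It lies on chromosome 6 (86028681 to 86124409, plus strand) and fell to 3.09 FPKM in Prmt5cKO, against 4.43 in control, and the authors' deposited table gave it a log2 fold change of -0.52 at q = 7.13e-04. In whole limbs the level of Add2 cannot be assigned to red cells either. Ermap encodes an erythroid membrane protein of the immunoglobulin superfamily, which carries the Scianna blood group in humans. It lies on chromosome 4 (119175457 to 119190011, minus strand) and stood at 2.42 FPKM in Prmt5cKO and 2.99 in control, and the authors' deposited table gave it a log2 fold change of -0.30 at q = 0.232.

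Of 19 further membrane genes at the minimum level 2 fell and none rose, beside 17.6% and 4.39% of all genes. Another 14 missed the threshold and 3 had no test. Kel, an erythroid membrane protease, fell to 4.63 FPKM in Prmt5cKO against 6.06 in control. Add1, the widely expressed alpha-adducin that pairs with Add2, fell to 40.1 FPKM in Prmt5cKO against 47.9 in control. Sptb, which encodes erythroid beta-spectrin, did not pass, at 4.19 FPKM in Prmt5cKO and 4.32 in control. Slc4a1, the anion exchanger of the red cell membrane, has no test in the table and was measured at 22.2 FPKM in Prmt5cKO and 27.7 in control. Sptb and Slc4a1 were chosen after their values were seen.

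**Figure D4:**
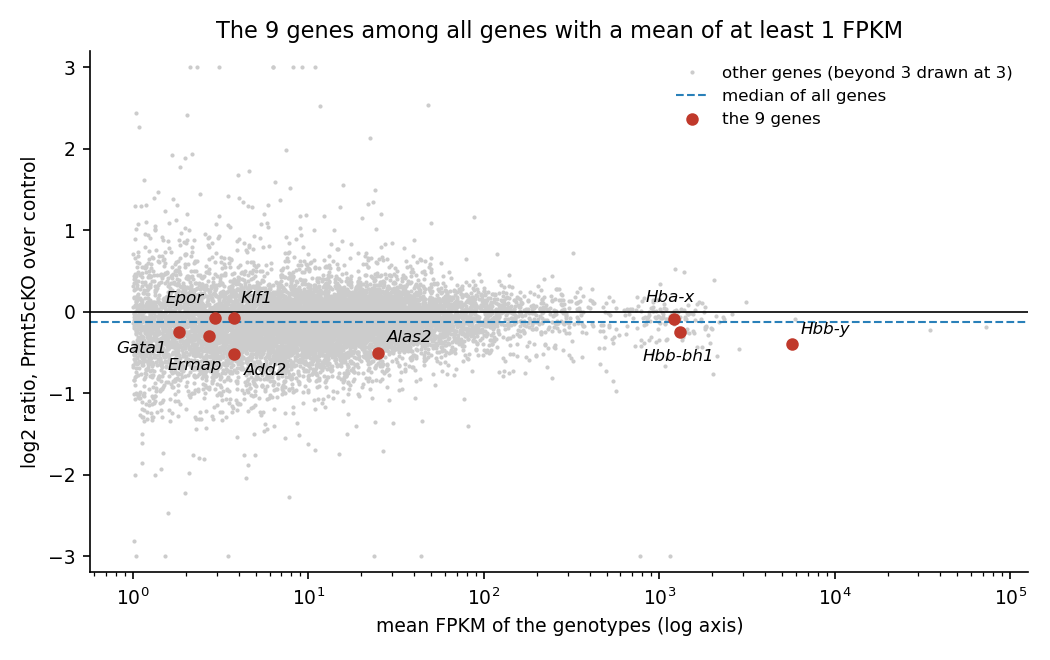
Log2 ratio of Prmt5cKO over control against the mean FPKM of the genotypes (log axis) for 11657 genes with a mean of at least 1 FPKM and a value above 0 in both, without a pseudocount. The 9 genes lie below 0 in these unscaled values, among ratios that other genes also show, on both sides of the dashed median at -0.13.

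The share of related red cell genes that fell did not exceed that of all genes. Over the 6 lists of haem, transcription factor, erythropoietin, membrane, iron and maturation genes, without the 9 genes themselves, 13 of 92 genes fell (14.1%, beside 17.6% of all genes) and 3 rose (3.26%, beside 4.39% of all genes). Among 14 maturation genes Bpgm, Prdx2 and Bnip3l fell and 11 did not pass. Prdx2, an abundant antioxidant protein of red cells, fell to 621 FPKM in Prmt5cKO against 830 in control, and Bpgm, which makes 2,3-bisphosphoglycerate, fell to 19.6 FPKM in Prmt5cKO against 25.9 in control. Bnip3l, which helps maturing red cells clear their mitochondria, fell to 41.4 FPKM in Prmt5cKO against 53.1 in control. Among 13 iron genes Fbxl5, a sensor of cellular iron, rose to 62.6 FPKM in Prmt5cKO against 51.3 in control, while 11 missed the threshold and 1 had no test. With a pseudocount of 1 FPKM the median log2 ratio was -0.22 for the 9 genes, -0.27 for the maturation list, -0.15 for haem, -0.19 for erythropoietin signalling, -0.14 for transcription factors, -0.09 for membrane and -0.02 for iron, beside -0.12 for all genes.

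**Figure D5:**
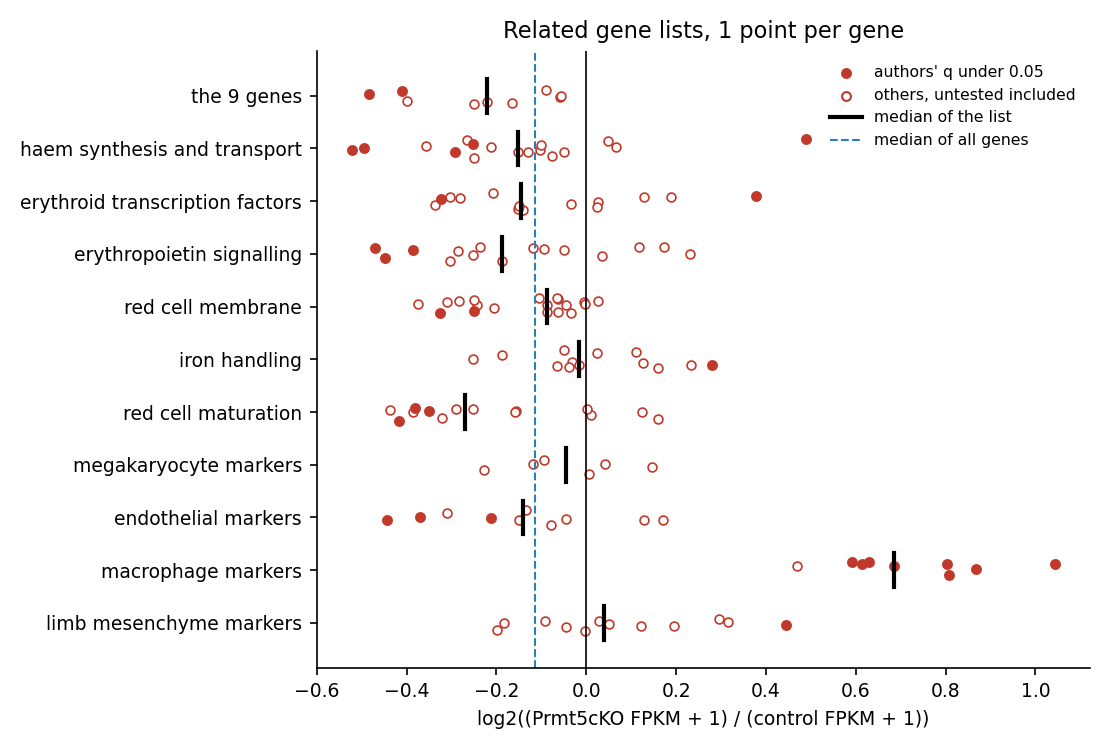
Log2((Prmt5cKO FPKM + 1) / (control FPKM + 1)) for genes of the 9, of the 6 related lists and of 4 cell type lists, with bars at the list medians. Only genes with a mean of at least 1 FPKM and a value above 0 in both genotypes are drawn, filled where the authors' q was under 0.05. The red cell lists lie around the dashed median of all genes at -0.12, and the macrophage markers lie to the right of 0.

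Among markers of other cells in the limb, those of macrophages were mostly higher in Prmt5cKO. At the authors' q under 0.05, 17.6% of all genes fell and 4.39% rose. Of 9 macrophage markers at the minimum level 8 rose (Csf1r, Emr1, Cd68, Mrc1, Stab1, C1qb, C1qc and Aif1), C1qa did not pass, and their summed level was 59.1 FPKM in Prmt5cKO and 32.1 in control. Of 10 endothelial markers Erg, Cd34 and Clec14a fell, while 5 missed the threshold and 2 had no test. The 10 summed to 84.6 FPKM in Prmt5cKO and 94.4 in control. With a pseudocount of 1 FPKM their median log2 ratio was -0.14, beside -0.12 for all genes. Of 6 megakaryocyte markers none passed, with Gp1ba, Itga2b and Itgb3 having the smallest q, and the sum was 29.8 FPKM in Prmt5cKO and 29.9 in control. Among 6 blood progenitor markers Cd34 fell, Ptprc rose and 4 did not pass, with sums of 28.0 FPKM in Prmt5cKO and 30.1 in control. Cd34 here is the same row as in the endothelial list, and Ptprc lay near the minimum level, at a mean of 1.22 FPKM. Among 12 limb mesenchyme markers Lhx2 rose, while 9 missed the threshold and 2 had no test, with sums of 667 FPKM in Prmt5cKO and 657 in control. No marker of these 5 lists was listed at 0 in either genotype. The 9 red cell genes summed to 7331 FPKM in Prmt5cKO and 9214 in control, 79.6% of control. Of these sums the embryonic globins, none of which passed, made up 7297 FPKM in Prmt5cKO and 9168 in control. The part of the other cell types in the difference between the sums was not tested.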

How the data were processed

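RNA-seq of 2 Prmt5cKO and 3 control forelimb samples was used, with groups read from the titles. TRIzol extraction is stated per the labels' protocols. Cufflinks 2.1.1, TopHat2 2.0.10, Bowtie2 2.1.0 and the build mm10 are listed per the submitters' processing notes, with neither role nor setting. Per the file headers, the authors deposited 1 FPKM per genotype, a log2 fold change and a q-value for each of 28092 rows. Neither their test nor the way replicates were combined is known, so whether the q-value measures the spread between samples is unknown too. The authors' deposited log2 fold change equals the log2 ratio of the FPKM to within 1.3e-05. Rows with a fold of 0 and a q of 1 were taken as untested. Rows naming no gene (4367, holding 2.08% of the summed FPKM in Prmt5cKO and 1.94% in control) were left out. A second deposited table of 208 rows, none with a log2 fold change under 1.0 in size, holds none of the 9 genes.

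The tables used here give values per genotype and not per sample, so the planned limma fit was not run and no p-value or SD was computed. For lists, 1 row (the highest mean) per single symbol was kept. Ratios of lists used a pseudocount of 1 FPKM, which understates changes of low genes. Named genes were the 9 members, all globin rows, the genes called in each list (or, with none called, the 3 of smallest q), Prmt5, Xist and Ddx3y; Alas1, C1qa, Sptb and Slc4a1 were named outside this rule, after their values were seen. A few list genes are not reported here and were left out of the lists and their counts, after their values were seen. The members, the lists and the tests were chosen with earlier results of these data known. Gene positions are from GENCODE M21 on GRCm38 (mm10). Counting was tested on simulated data. Python 3.11.15, pandas 2.3.3 and matplotlib 3.10.9 were used. Alternatives covered the pseudocount, minimum level, q threshold, scaling, sex chromosomes and the globin total.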

Additional observations from a re-analysis of the deposited data

How the results depend on the processing

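Alas2 and Add2 were the members that fell with a q under 0.01, under 0.05 and under 0.1 and with no minimum level; with a minimum mean of 5 FPKM the count was 1 in place of 2, since that setting leaves out Add2. Genes of the 6 related lists that fell numbered 13, with 10 at a q under 0.01 and 21 at a q under 0.1. The share of all genes that fell was counted at a q under 0.05 only. The 10 and the 21 therefore have no such share beside them. The members' median log2 ratio, -0.22, was -0.32 with a minimum mean of 5 FPKM, which keeps 4 genes, -0.11 after centring on the median of all genes and -0.069 after quantile normalization. Under centring Hba-x, Klf1 and Epor turned to 0.02, 0.06 and 0.06, and under quantile normalization Klf1 and Epor turned to 0.07 and 0.10, so a lower level of all 9 genes holds for FPKM as deposited and not under these scalings. Alas2 kept its sign in all 8 settings, the main one included (-0.50 to -0.37), as did Add2 (-0.52 to -0.27). Most of these could not turn it: a pseudocount leaves the sign as it is, and averaging the rows of a symbol changes nothing where each member has 1 row. Under centring Alas2 was at -0.37 and Add2 at -0.30, and under quantile normalization Alas2 was at -0.40 and Add2 at -0.27. The share of globin rows in the summed FPKM was 1.30% in Prmt5cKO and 1.53% in control without rows of several genes, and 1.99% in Prmt5cKO and 2.45% in control without Rmrp and Rpph1, a choice made after seeing the data. Values without replicates were counted as moved beyond 0.1 on the log2 scale. No paired analysis was possible because the columns carry no replicate numbers, and leaving out each replicate was not run for the same reason. With 1 value per genotype and unknown depth, small differences of genes at a few FPKM, such as Gata1, could not be resolved.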
